A study of Mus musculus with 2 samples.

Results

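Chromatin repressors that hold the 2-cell-like (2C-like) programme down in mouse embryonic stem cells are described here as a group of 10 genes, chosen by symbol and not by their values in this account: Trim28, Setdb1, Kdm1a, Hdac1, Zmym2, Ehmt2, Chaf1a, Chaf1b, Pcgf6 and Rybp. All 10 were found among the 55415 features of the count tables, each as 1 feature, and all 10 passed the filter on low values in each of the 8 comparisons below. The study followed the fate of 2C-like cells in a mouse embryonic stem cell line (mESC, pluripotent cells that renew themselves in culture) that carries a GFP reporter driven by the promoter of MERVL, an endogenous retrovirus, and the fusion protein H2B-mIFP, a fluorescent histone that labels nuclei. Single-cell transcriptomes came as a pair of libraries, MERVL GFP positive and MERVL GFP negative by their labels, with 1 library per group. Both come from that line, no treatment, time or age is given, how the cells were separated is not stated, and the labels use the same words for the batch as for the group, so a batch effect cannot be told apart from the group.

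After the cell filter the positive library held 4596 cells and the negative library 3832, with 138303336 and 156406894 UMIs (molecule counts) and medians of 29554.5 and 39099.5 UMIs a cell. With 1 library per group there was no replicate check and no test, and every 95% interval below is an exact one that covers counting error only. The libraries shared 3 cell barcodes. Each cell was thinned to 10000 UMIs, which left 4402 and 3824 cells. Of these, 67.3% of positive-library cells and 0.366% of negative-library cells had a UMI of the Zscan4 family (9 near-identical features that mark the 2C-like state, summed here). For GFP the shares were 61.9% and 0.445%. The part of free RNA (molecules from other cells) in these shares was not measured. All 7 stem cell markers had UMIs in both libraries, with summed levels of 14395 and 13567 CPM (UMIs scaled to a total of 1000000 over all genes of the group). The highest single marker alone had 11499 and 10358.9 CPM, so these sums mostly follow that marker and do not describe the rest. The 13 measured 2C markers summed to 578 CPM in positive-library and 0.825 CPM in negative-library cells, where in the latter Tdpoz4, Tcstv1 and AF067061 were at 0. The 8 primitive endoderm markers summed to 235 and 117 CPM, the 8 trophoblast markers to 108 and 65.8 CPM, and the 6 fibroblast markers to 12.8 and 3.14 CPM, with Col3a1 at 0 in the negative library.

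As background, the 2C-like state is a rare and reversible condition in which stem cells transcribe genes and retroviral elements of the 2-cell embryo, and these 10 genes encode parts of the machinery known to keep those elements silent. TRIM28 is the corepressor that KRAB zinc finger proteins bring to retroviral sequence, and SETDB1 is the methyltransferase it recruits to place H3K9me3. KDM1A (LSD1) removes methyl groups from histone H3 and works with deacetylases such as HDAC1 and with the zinc finger protein ZMYM2, EHMT2 (G9a) places H3K9me2, CHAF1A and CHAF1B are the large and middle subunits of CAF-1, the chaperone that deposits histones on newly copied DNA, and PCGF6 and RYBP belong to the variant Polycomb complex PRC1.6. Loss of several of them is known to raise the share of 2C-like cells, and the question the data can address is what their own transcripts do in cells that are in the state.

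The promoters of 5 members that stood out in the results are shown. Chaf1a and Chaf1b followed the S phase genes together, and Trim28 differed most between the libraries. Zmym2 and Ehmt2 differed most, in opposite directions, by Zscan4 level. Each sequence is the 250 bases before the annotated start in RefSeq (build GRCm38.p6), read 5′ to 3′ on the gene's strand, with capitals marking GCGGGAA or its reverse complement TTCCCGC, the core of sites bound by E2F factors.
Chaf1a: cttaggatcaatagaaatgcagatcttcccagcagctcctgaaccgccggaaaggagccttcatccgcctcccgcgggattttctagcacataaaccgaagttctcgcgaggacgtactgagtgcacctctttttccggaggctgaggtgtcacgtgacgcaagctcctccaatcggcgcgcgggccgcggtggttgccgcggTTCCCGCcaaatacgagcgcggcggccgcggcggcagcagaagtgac
Chaf1b: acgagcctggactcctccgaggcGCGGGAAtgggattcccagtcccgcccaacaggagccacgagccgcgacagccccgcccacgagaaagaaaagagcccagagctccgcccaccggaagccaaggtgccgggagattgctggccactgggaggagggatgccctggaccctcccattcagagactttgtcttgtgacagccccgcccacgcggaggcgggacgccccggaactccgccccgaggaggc
Trim28: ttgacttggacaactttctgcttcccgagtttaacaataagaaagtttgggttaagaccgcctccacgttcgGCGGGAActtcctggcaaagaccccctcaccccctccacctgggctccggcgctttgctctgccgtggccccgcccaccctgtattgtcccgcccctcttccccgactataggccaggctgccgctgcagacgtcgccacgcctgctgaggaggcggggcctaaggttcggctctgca
Zmym2: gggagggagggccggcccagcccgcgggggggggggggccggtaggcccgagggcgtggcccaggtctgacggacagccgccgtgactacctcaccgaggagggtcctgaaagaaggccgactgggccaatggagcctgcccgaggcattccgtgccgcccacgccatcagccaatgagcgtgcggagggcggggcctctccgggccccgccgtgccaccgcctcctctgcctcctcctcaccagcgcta
Ehmt2: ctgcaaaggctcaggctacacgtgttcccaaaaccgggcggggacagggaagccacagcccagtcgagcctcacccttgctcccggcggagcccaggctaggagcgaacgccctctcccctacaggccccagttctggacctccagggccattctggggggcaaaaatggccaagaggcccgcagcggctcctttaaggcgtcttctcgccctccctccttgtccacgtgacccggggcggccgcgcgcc
These lie at chr17:56040166-56040415 for Chaf1a, chr16:93883651-93883900 for Chaf1b, chr7:13023902-13024151 for Trim28, chr14:56886353-56886602 for Zmym2 and chr17:34898224-34898473 for Ehmt2, all on the plus strand, and the RefSeq start of Trim28 lies inside the longer GENCODE model given below. The match began 47 bases before the start in Chaf1a (on the reverse strand), 227 bases before it in Chaf1b and 178 bases before it in Trim28. RefSeq promoters were found for 8 of the 10 members, and 3 of the 8 held the 7 letters on either strand, against 1184 of 27025 genes (4.38%) when each gene is likewise taken over all its listed promoters, and 1254 of all 32851 promoters of the same length (3.82%). Setdb1, Kdm1a, Pcgf6 and both listed promoters each of Zmym2 and Ehmt2 held no match. A match is a description of letters and was not tested as a binding site. The motif was chosen after these data were seen. The genes compared were not matched for expression or GC content, so the shares do not test for enrichment.

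**Figure D1:**
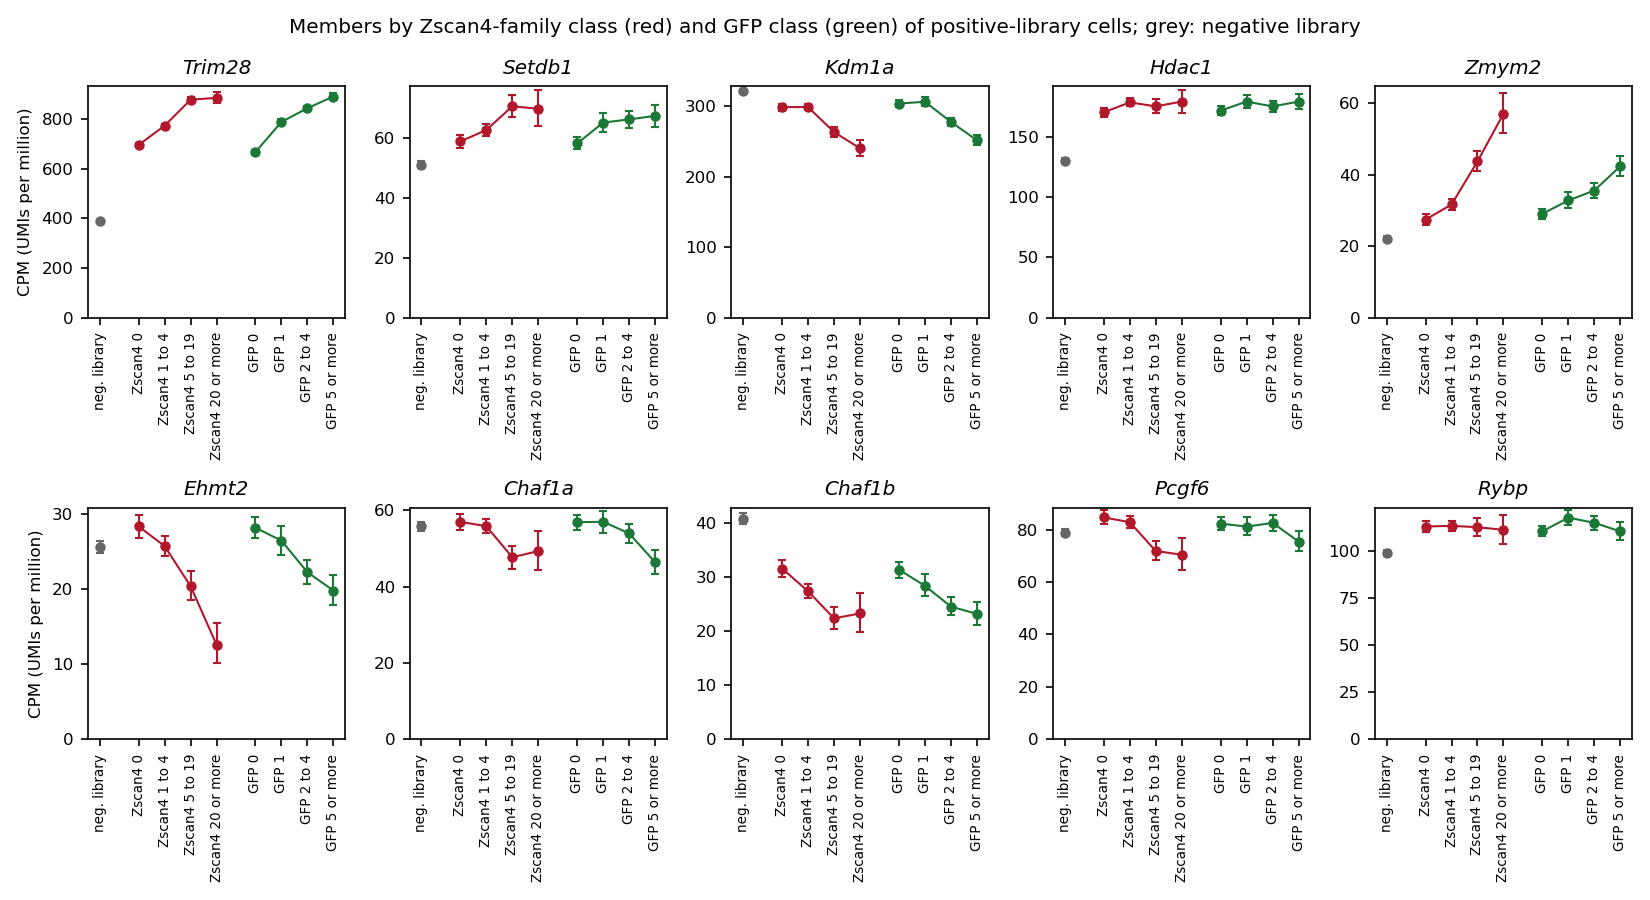
CPM (vertical axes, from 0) of the 10 members in the negative library (grey), in positive-library cells by thinned Zscan4-family UMIs (red) and in the same cells by thinned GFP UMIs (green), with bars for the 95% Poisson interval. Zmym2 stands higher and Ehmt2 lower at each step up in Zscan4 class, while every Trim28 point of the positive library lies above the negative library's 390 CPM.

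Between the libraries, Trim28 was the member that differed most. Trim28 (ENSMUSG00000005566, chr7:12999114-13031035, plus strand) had a level of 766 CPM (761 to 771) in positive-library cells, against 390 CPM (387 to 393) in negative-library cells, a ratio of 1.97 (1.95 to 1.99). In cells thinned to the same depth the mean was 7.61 against 3.85 UMIs a cell. The variance of Trim28 from cell to cell was 2.77 times its mean in the positive and 1.42 times in the negative library. This measure can grow with the mean, which also differed, so the values are not on a like scale. Counted as called when the ratio of CPM + 1 reached 1.5, Trim28 was the 1 member called higher and 0 were called lower, beside 17.6% and 4.89% of the 8042 genes tested.

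Zmym2 (ENSMUSG00000021945, chr14:56886653-56962701, plus strand) lay just under that limit, at 33.5 CPM (32.5 to 34.5) against 22.1 CPM (21.4 to 22.8), and Chaf1b lay below 1 at 27.8 against 40.7 CPM, a ratio of 0.683 (0.656 to 0.711). Of the cells thinned, 26.9% in the positive and 37.7% in the negative library fell in the high S phase class described below, and within the low, middle and high class the log2 ratio of Chaf1b was -0.52, -0.46 and -0.46, against -0.53 between the whole libraries. The median mitochondrial share was 2.56% and 1.598% of a cell's UMIs, and 10.9% and 5.81% of the cells thinned had 5 or more endoderm-list UMIs. The part of the mitochondrial share in these differences was not tested. Hdac1 stood at 175 CPM in the positive and 130 CPM in the negative library, and Setdb1 at 62.7 and 51.0 CPM. The other 5 members lay within a ratio of 0.90 to 1.14: Kdm1a at 289 and 321 CPM, Ehmt2 at 25.0 and 25.6 CPM, Chaf1a at 54.7 and 55.8 CPM, Pcgf6 at 81.1 and 78.8 CPM, and Rybp at 113 and 99.2 CPM. The median log2 ratio of CPM + 1 was 0.11 over the members and 0.14 over all genes tested. Against the 4461 tested genes whose mean CPM lay between that of the lowest and the highest member (25.3 to 578 CPM), 3 members were above the upper quartile of 0.35, 1 was below the lower quartile of -0.17 and 6 were between them.

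The size of these library differences depended on the scaling. TMM and median-of-ratios factors moved the median of all genes by -0.30 on the log2 scale, turned the split of called genes from 1418 higher and 393 lower to 685 and 1279 (TMM) or 686 and 1270 (median of ratios), and put Pcgf6 and Rybp below 1. At the limit of 1.5, Trim28 was called higher under all 14 alternatives that could change its value, with log2 ratios of 0.68 (TMM) to 1.09 (cells of 10000 to 20000 UMIs), and at a limit of 2 it was not called. Zmym2 crossed the limit of 1.5 under 6 of the 14, and Chaf1b was called lower under 4.

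Trim28 was also called higher in the positive library among cells with the fewest UMIs of both markers. In cells with 0 thinned Zscan4-family UMIs and 0 thinned GFP UMIs, 800 of the positive and 3794 of the negative library, Trim28 stood at 636 CPM (627 to 646) and 389 CPM, a log2 ratio of 0.71. These cells had no marker UMI only among the 10000 kept by thinning: over all their UMIs the Zscan4 family stood at 41.5 CPM and GFP at 25.1 CPM in the positive, against 0.142 and 0.303 CPM in the negative library. The 800 and 3794 cells also differed in endoderm-marked cells (10.9% and 5.72%), the high S phase class (32.4% and 37.8%), the median mitochondrial share (2.40% and 1.599%) and the median depth (33515.5 and 39133.5 UMIs), whose part in this comparison was not tested. Trim28 was the 1 member called higher and 0 were called lower, beside 10.9% and 2.02% of 7819 genes. The call was lost at a limit of 2 and, at 1.5, under TMM and median of ratios, where the log2 ratio went down to 0.34 (median of ratios) and the split of called genes went from 852 higher and 158 lower to 269 and 834 (TMM) or 242 and 988 (median of ratios). Hdac1 had 167 against 130 CPM and Chaf1b 33.8 against 40.9 CPM in the same cells, while Zmym2, at 26.5 against 22.0 CPM, was closer to 1 than between the whole libraries. Under both TMM and median of ratios Chaf1b was called lower, down to a log2 ratio of -0.62, and Zmym2 turned negative, down to -0.10, so that the 1 member called was Chaf1b in place of Trim28, and Hdac1 turned to -0.00349 under median of ratios. The whole libraries include these cells, so the 2 comparisons are not independent.

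**Figure D2:**
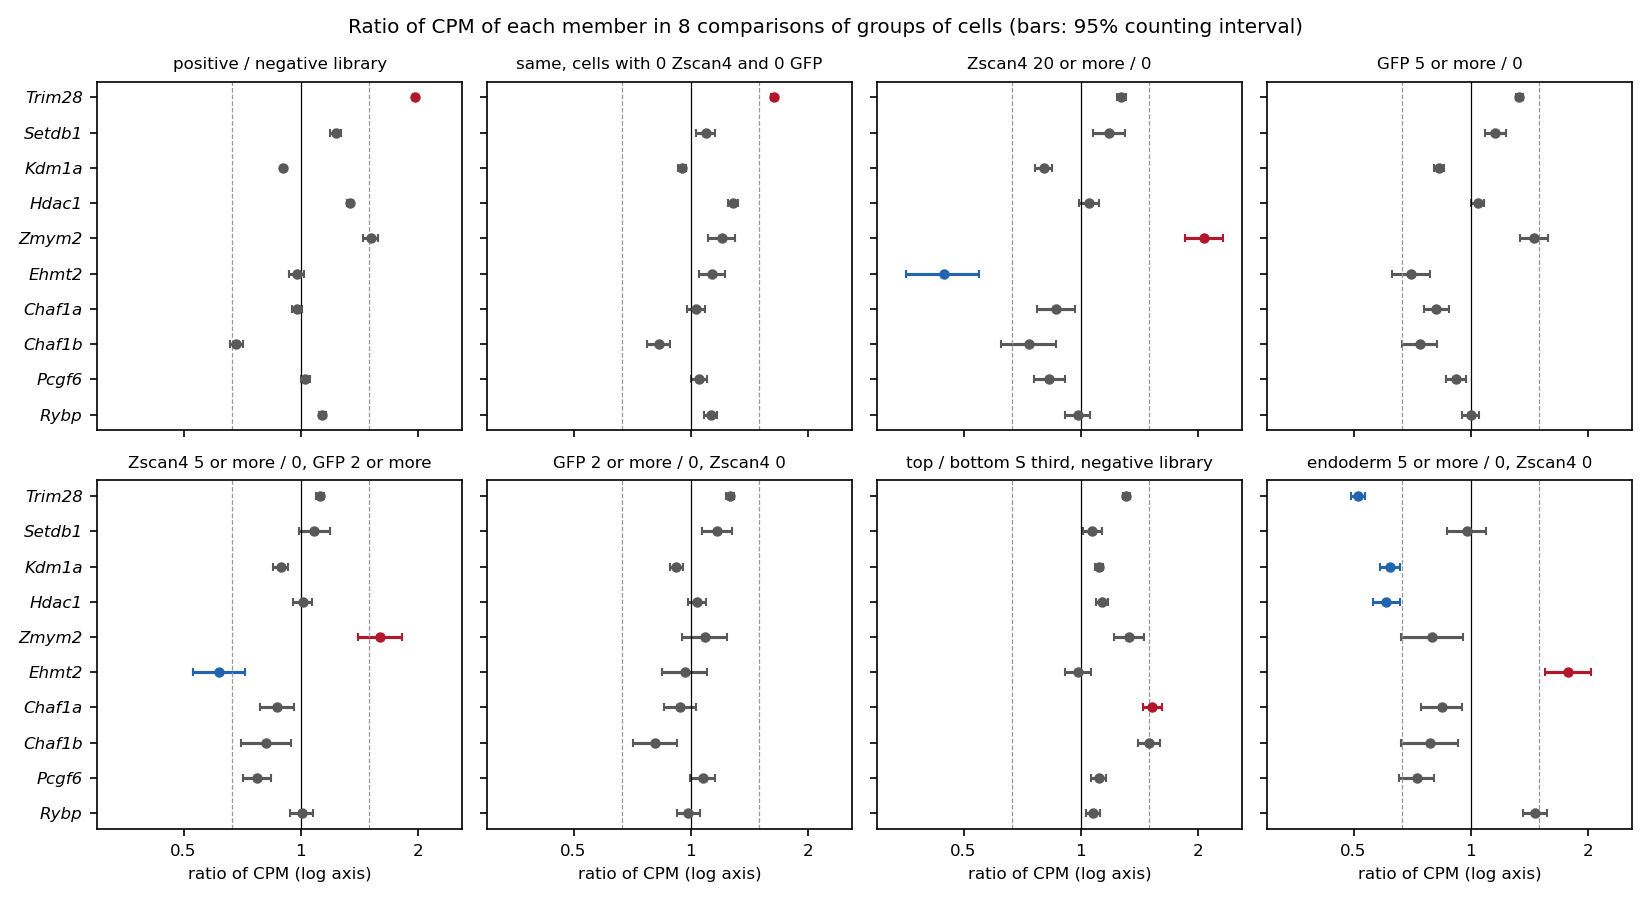
Ratio of CPM (horizontal log axis) of each member in the 8 comparisons of groups of cells, with bars for the 95% counting interval, a solid line at 1 and dashed lines at 1.5 and its inverse. Red points were called higher and blue points lower on CPM + 1, and Zmym2 between the libraries lies at 1.52 in CPM but just under the limit on CPM + 1.

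Within the positive library, Zmym2 and Ehmt2 were the members that differed most with the level of Zscan4, in opposite directions. Cells were placed in classes of 0 (1438 cells), 1 to 4 (1860 cells), 5 to 19 (745 cells) and 20 or more (359 cells) Zscan4-family UMIs among 10000, where the lowest class still had 48.0 CPM of the family over all UMIs of its cells. Zmym2, which encodes an MYM-type zinc finger protein that binds the LSD1 and CoREST complex, had 27.4 CPM (26.0 to 28.9), 31.7 CPM (30.3 to 33.1), 43.7 CPM (40.9 to 46.7) and 57.0 CPM (51.7 to 62.8) in that order. Each class lay above the one before it with no overlap of intervals, and the highest class was 2.08 times the lowest (1.86 to 2.32). Ehmt2 (ENSMUSG00000013787, chr17:34898469-34914052, plus strand), the G9a methyltransferase gene, had 28.3 CPM (26.8 to 29.8), 25.7 CPM (24.4 to 27.0), 20.4 CPM (18.5 to 22.4) and 12.6 CPM (10.1 to 15.4). Only the first 2 of these intervals overlapped, and the highest Zscan4 class was at 0.444 times the lowest (0.356 to 0.548).

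The same order was seen in shares of cells. A Zmym2 UMI was found in 22.8% of thinned cells at 0 Zscan4 and 41.8% at 20 or more, and an Ehmt2 UMI in 24.0% and 10.03%. Without thinning the shares were 55.1% and 61.6% for Zmym2 and 58.1% and 22.0% for Ehmt2, with median depths of 33146.5 and 19260 UMIs a cell. In the 20 or more class, 1 of 359 cells had 2 or more thinned Ehmt2 UMIs, and 49 had 2 or more of Zmym2. No class of cells here should lack these genes, so the share that free RNA gives was not measured.

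Across 16 groups of cells (the negative library and the crossed Zscan4 and GFP classes of at least 50 cells), the log2(CPM + 1) levels of Zmym2 and Ehmt2 had a Pearson r of -0.82. This is a description, since the positive-library groups share 1 library and their depth varies with class. The pair was picked because the genes differed in opposite directions by Zscan4 level. The positive-library groups are themselves made from Zscan4 classes, so a negative r follows largely from that choice and is no separate result. This r was not the strongest among the pairs of members: Setdb1 and Chaf1b had an r of -0.91, and Trim28 and Hdac1 had an r of 0.88.

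Comparing the 20 or more class with the 0 class over all 8529 genes tested, 1 member was called higher and 1 lower, beside 18.7% and 20.6% of all genes. Zmym2 was called higher and Ehmt2 lower under all 16 alternatives that could change their values, with log2 ratios of 0.88 to 1.21 and of -1.44 to -0.61. The members' median was -0.11 and that of all genes -0.11. Of the 5480 tested genes in the members' range of mean CPM (20.4 to 790), 16.3% were called higher and 20.7% lower, and 7 members lay between the quartiles of -0.51 and 0.31. Cell depth, endoderm markers and S phase genes moved with the classes: the median was 33146.5 UMIs a cell at 0 and 19260 at 20 or more, 13.1% and 1.95% of cells had 5 or more endoderm-list UMIs, and 29.8% and 15.9% were in the highest S phase class described below. The median mitochondrial share was 2.35% at 0 and 3.28% at 20 or more, and the median number of UMIs from 54 G2/M genes was 84 and 113 among 10000. The part of these last 2 measures in the differences was not tested. The 7 stem cell markers summed to 15445 and 7777 CPM, and none was at 0. The highest single marker alone had 12066.5 and 6495.68 CPM, so these sums mostly follow that marker. Both calls were also made in cells of 10000 to 20000 UMIs, in cells with fewer than 5 endoderm UMIs and within each S phase class.

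**Figure D3:**
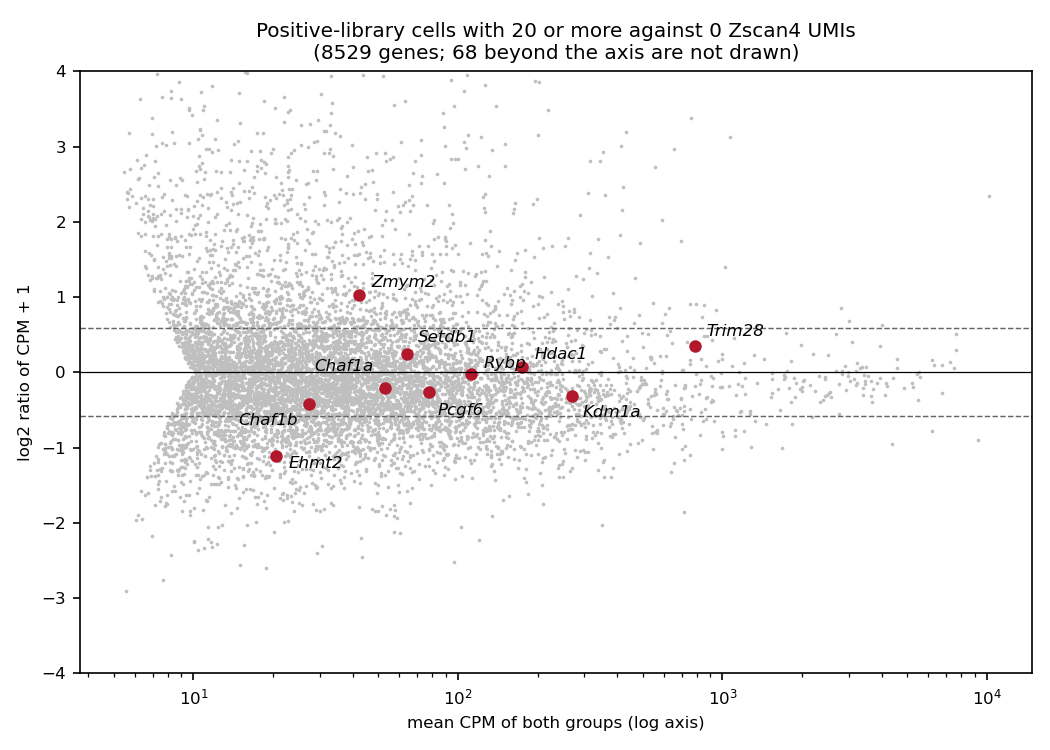
Log2 ratio of CPM + 1 (vertical axis) of positive-library cells with 20 or more against 0 Zscan4 UMIs, by the mean CPM of both groups (horizontal log axis), for 8529 genes (grey) and the 10 members (red), with dashed lines at a ratio of 1.5 either way and 68 of the genes beyond the axis and not drawn. Zmym2 at 1.03 and Ehmt2 at -1.11 lie beyond the lines inside a broad cloud, and the other 8 members lie between them.

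The other members moved less. Trim28 had 695, 772, 877 and 885 CPM from the lowest to the highest Zscan4 class, and the intervals of the upper 2 classes overlapped. Kdm1a (ENSMUSG00000036940, chr4:136550540-136602723, minus strand), the LSD1 demethylase gene, had 298, 299, 263 and 240 CPM, with the lower 2 classes overlapping. Pcgf6 (ENSMUSG00000025050, chr19:47033617-47050906, minus strand), the subunit that names PRC1.6, had 84.7, 82.8, 71.8 and 70.4 CPM. Chaf1a had 57.0, 55.9, 47.7 and 49.3 CPM and Chaf1b 31.6, 27.4, 22.3 and 23.2 CPM. For these 3 genes the highest 2 classes did not differ beyond their intervals.

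Hdac1 (ENSMUSG00000028800, chr4:129516104-129542713, minus strand), the deacetylase gene, stayed between 170 and 179 CPM, and Rybp (ENSMUSG00000072872, chr6:100228565-100287485, minus strand), whose product links Polycomb complexes to ubiquitinated histone, between 112 and 114 CPM. The ratio of the highest to the lowest class had an interval of 0.992 to 1.12 for Hdac1 and 0.914 to 1.06 for Rybp. Their sign was not stable: Hdac1 turned negative under 1 of 16 alternatives (thinned UMIs) and Rybp positive under 4. Chaf1a and Chaf1b, both lower at 20 or more Zscan4 UMIs, turned positive under 1 each, Chaf1a within the middle S phase class and Chaf1b in cells of 10000 to 20000 UMIs.

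Setdb1 (ENSMUSG00000015697, chr3:95323525-95357202, minus strand) had 58.8, 62.6, 70.6 and 69.7 CPM, but its values are uncertain. The feature Gm4349 is 99.38% identical to a stretch of 645 bases of Setdb1, and it had 10.01, 14.8, 31.9 and 39.2 CPM in the same classes, and 17.0 against 5.03 CPM between the libraries. How reads matching both were assigned is not given in the sources used here. The closest copies of Hdac1 and Rybp, Hdac1-ps and Rybp-ps, had 0.788 and 0.557 CPM in the positive and 0.914 and 0.780 CPM in the negative library, and each of 3 further copies of Hdac1 had at most 62 UMIs in a library.

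By GFP, the reporter itself, the ratios of Zmym2 and Ehmt2 lay closer to 1 than by Zscan4 level. The ratio of Trim28 lay further from 1, at 1.34 against 1.27 by Zscan4. For Chaf1a the intervals overlapped, at 0.757 to 0.878 by GFP and 0.774 to 0.966 by Zscan4. The comparisons are unlike: the highest class had 22.9 times the GFP of the lowest here and 97.0 times the Zscan4 there. They share cells, and the difference between them was not tested. In classes of 0 (1677 cells), 1 (828 cells), 2 to 4 (1135 cells) and 5 or more (762 cells) thinned GFP UMIs, Trim28 had 666 CPM (660 to 673), 788 CPM (777 to 798), 843 CPM (833 to 853) and 890 CPM (877 to 903), and no neighbouring intervals overlapped. Zmym2 had 29.1, 32.8, 35.6 and 42.4 CPM and Ehmt2 28.1, 26.4, 22.2 and 19.8 CPM, the same directions as by Zscan4 with the intervals of some neighbours overlapping. At 5 or more against 0, Zmym2 had a ratio of 1.46 (1.34 to 1.59), Trim28 of 1.34 (1.31 to 1.36) and Ehmt2 of 0.703 (0.627 to 0.786). Chaf1b had a ratio of 0.739 (0.665 to 0.820), Chaf1a of 0.815, Kdm1a of 0.829 and Setdb1 of 1.16. No member reached 1.5 in either direction (0 higher and 0 lower, beside 7.86% and 9.21% of 8191 genes), and the members' median was -0.06 against -0.12 for all genes. TMM and median of ratios turned the split of called genes from 644 higher and 754 lower to 794 and 470 or 771 and 491, and each put Zmym2 past the limit. From 0 to 5 or more GFP UMIs the median depth went from 32428 to 24771 UMIs a cell, the share of cells in the high S phase class from 31.1% to 19.7% and the median G2/M count from 84 to 98 UMIs. In cells of 10000 to 20000 UMIs the log2 ratio of Ehmt2 was -0.09, against -0.49 in all cells, and that of Zmym2 was 0.41, against 0.53. Ehmt2 was called lower under 3 of 16 alternatives (10 or more GFP UMIs, and the middle and the high S phase class, down to -0.67). Rybp, at 111 CPM in both end classes, Hdac1, at 172 and 179 CPM, and Pcgf6, at 82.3 and 75.4 CPM, changed sign under some alternatives.

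Zscan4 and GFP levels go together in these cells (183 CPM of the Zscan4 family at 0 GFP UMIs and 1093 CPM at 5 or more), so each was also compared within a class of the other, which narrowed the other marker's difference and did not remove it. Among cells with 2 or more GFP UMIs, 802 cells with 5 or more Zscan4 UMIs were set against 353 cells with 0, and GFP still stood at 528 against 323 CPM. Endoderm-marked cells made up 7.11% of the 802 and 18.98% of the 353. The median depth was 23005 and 31798 UMIs a cell, and the median mitochondrial share 2.94% and 2.29%. The high S phase class held 17.8% and 23.8%. The part of these in the differences was not tested. Zmym2 had 46.0 against 28.8 CPM, a ratio of 1.598 (1.41 to 1.82), and Ehmt2 17.4 against 28.2 CPM, a ratio of 0.616 (0.528 to 0.719). They were the 1 member called higher and the 1 called lower, beside 9.96% and 6.7% of 8116 genes. Both calls were lost at a limit of 2, and that of Ehmt2 was lost at 1.5 under TMM, at a log2 ratio of -0.57, where the split of called genes went from 808 higher and 544 lower to 990 and 322 (963 and 351 under median of ratios). Trim28 was at 902 against 804 CPM, and Pcgf6 at 68.7 against 88.9 CPM.

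Those 353 cells were in turn set against 800 cells with 0 of both among 10000 UMIs, where GFP stood at 323 against 25.1 CPM and the Zscan4 family, over all UMIs, at 60.2 against 41.5 CPM. Here Trim28 had 804 against 636 CPM, a ratio of 1.26 (1.23 to 1.30), while the intervals of Zmym2 (28.8 against 26.5 CPM, ratio 0.952 to 1.24) and Ehmt2 (28.2 against 29.2 CPM, ratio 0.846 to 1.10) included 1. No member was called (0 higher and 0 lower), beside 3.51% and 1.61% of 7945 genes. The 353 cells enter both comparisons, and the difference between the 2 comparisons was not tested. Endoderm-marked cells made up 10.9% of the cells with 0 of both, 16.9% of those with 0 Zscan4 and 2 to 4 GFP UMIs and 23.8% of those with 0 Zscan4 and 5 or more.

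**Figure D4:**
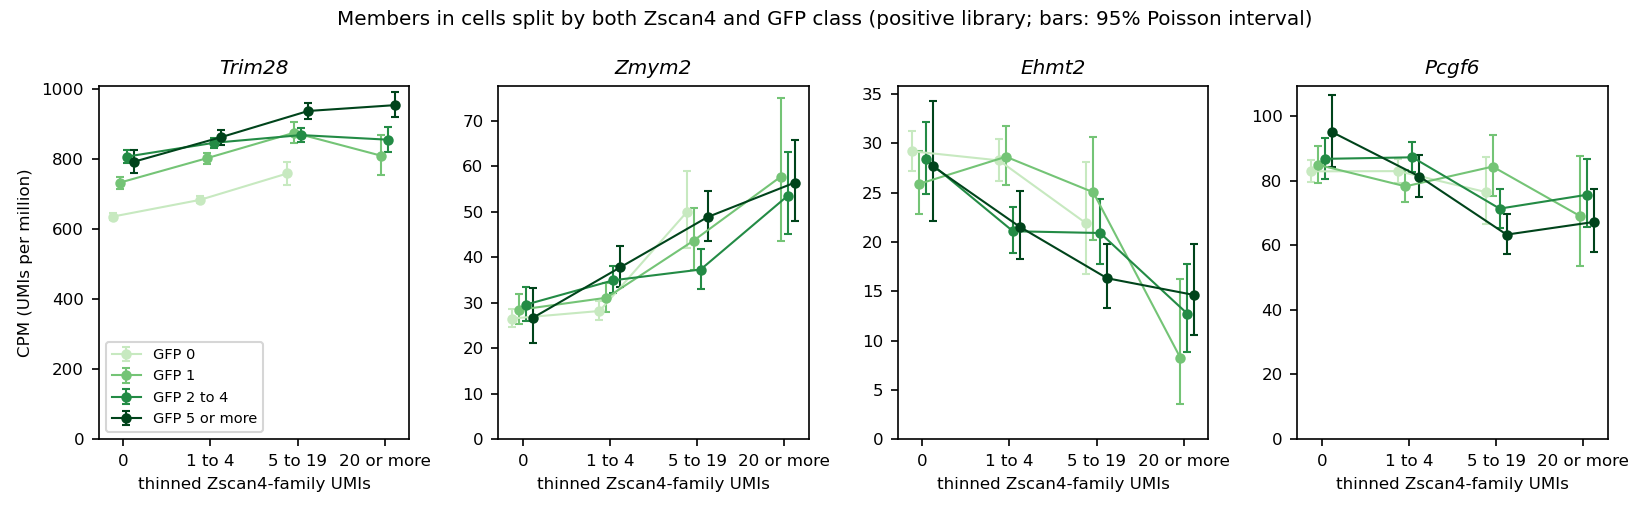
CPM (vertical axes, from 0) of 4 members in positive-library cells by Zscan4 class (horizontal axes), with 1 line per GFP class from light (0) to dark (5 or more) and bars for the 95% Poisson interval. At 0 Zscan4 UMIs the intervals of the GFP classes overlap for Zmym2 and for Ehmt2, whereas the Trim28 line of cells with 0 GFP UMIs lies below the others in each Zscan4 class drawn.

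In the full crossing of both markers, Zmym2 went from 26.5 to 28.2 and 49.9 CPM across the lower 3 Zscan4 classes of cells with 0 GFP UMIs, and from 26.7 to 37.8, 48.8 and 56.4 CPM across the 4 classes of cells with 5 or more. Along GFP at 0 Zscan4 it had 26.5, 28.4, 29.6 and 26.7 CPM, all within each other's intervals. Ehmt2 at 0 Zscan4 had 29.2, 25.9, 28.4 and 27.7 CPM along GFP, also overlapping. In cells with 20 or more Zscan4 UMIs it had 8.24 CPM (3.56 to 16.2) at 1 GFP UMI, 12.7 CPM at 2 to 4 and 14.6 CPM at 5 or more, so these 3 small groups of 51, 124 and 145 cells lay below every group with 0 Zscan4. Trim28 went from 636 to 733, 807 and 793 CPM along GFP at 0 Zscan4, and from 793 to 863, 938 and 955 CPM along Zscan4 at 5 or more GFP UMIs. The group with 20 or more Zscan4 and 0 GFP UMIs held 39 cells and was left out.

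S phase was described next because CAF-1 works at replication forks. Cells were divided by the number of their 10000 thinned UMIs from 42 S phase genes, with limits at 41 and 53 UMIs, into low, middle and high classes, and the negative library was used because nearly none of its cells carry the 2C markers. Chaf1a (ENSMUSG00000002835, chr17:56040439-56072289, plus strand) had 43.9 CPM (41.9 to 45.9) in 1007 low cells, 52.9 CPM (51.1 to 54.9) in 1374 middle cells and 67.0 CPM (64.9 to 69.1) in 1443 high cells. Chaf1b (ENSMUSG00000022945, chr16:93883901-93906115, plus strand), which was left out of the S phase genes, had 32.1 CPM (30.4 to 33.9), 39.3 CPM (37.7 to 41.0) and 48.1 CPM (46.4 to 49.9). Both CAF-1 genes thus stood higher in each class than in the one before, with high to low ratios of 1.53 (1.44 to 1.62) and 1.499 (1.40 to 1.601).

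Trim28 followed in the same direction, at 331, 386 and 434 CPM, a ratio of 1.31, and Zmym2 at 18.5, 21.9 and 24.7 CPM, a ratio of 1.33 (1.22 to 1.46). Ehmt2 did not, at 26.8, 24.0 and 26.4 CPM, a ratio of 0.983 (0.909 to 1.06). Chaf1a was called higher (1 member higher and 0 lower, beside 0.617% and 2.3% of 7293 genes), and Chaf1b lay just under the limit. The members' median log2 ratio was 0.17 against 0.02 for all genes, and 7 of the 10 lay above the upper quartile of 0.15 of the 4523 tested genes in their range of mean CPM. At the limit of 1.5 the call of Chaf1a was lost with thinned UMIs, at a log2 ratio of 0.56, and with CPM outside mitochondrial and ribosomal protein genes, at 0.57, and Chaf1b was also called under 4 of 9 alternatives. Endoderm-marked cells made up 15.0% of the low and 1.39% of the high class, and their part in these ratios was not tested. Chaf1a shares 4648 exon bases with Ubxn6 on the opposite strand, and whether the counting used strand is not given in the sources used here. Ubxn6 moved the other way, from 45.1 CPM in low to 36.3 CPM in high cells. In the positive library it moved the same way as Chaf1a by both markers. It had 30.0 CPM in the highest against 40.5 CPM in the lowest Zscan4 class, and 32.4 against 39.3 CPM by GFP.

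In positive-library cells with 0 Zscan4 UMIs the same classes gave 42.5, 57.1 and 72.6 CPM for Chaf1a and 24.8, 31.6 and 38.9 CPM for Chaf1b, where both were called. In cells with 20 or more Zscan4 UMIs they gave 32.9, 61.0 and 67.0 CPM for Chaf1a and 18.6, 23.4 and 35.0 CPM for Chaf1b, over 170, 132 and 57 cells. In each S phase class Chaf1b was below the negative library's level in both of these sets of cells. Chaf1a at 0 Zscan4 UMIs lay below it in low cells only, at 42.5 against 43.9 CPM. That value is within the negative library's interval given above. Zmym2 at 20 or more Zscan4 UMIs had 47.6, 63.5 and 67.7 CPM against 25.4, 26.9 and 30.2 CPM at 0, and Ehmt2 11.1, 11.5 and 18.7 CPM against 30.8, 25.1 and 29.1 CPM. The directions of Zmym2 and Ehmt2 by Zscan4 level were thus seen in all 3 classes, though the intervals of Ehmt2 in the high class (12.0 to 27.8 and 26.4 to 31.9) overlapped.

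**Figure D5:**
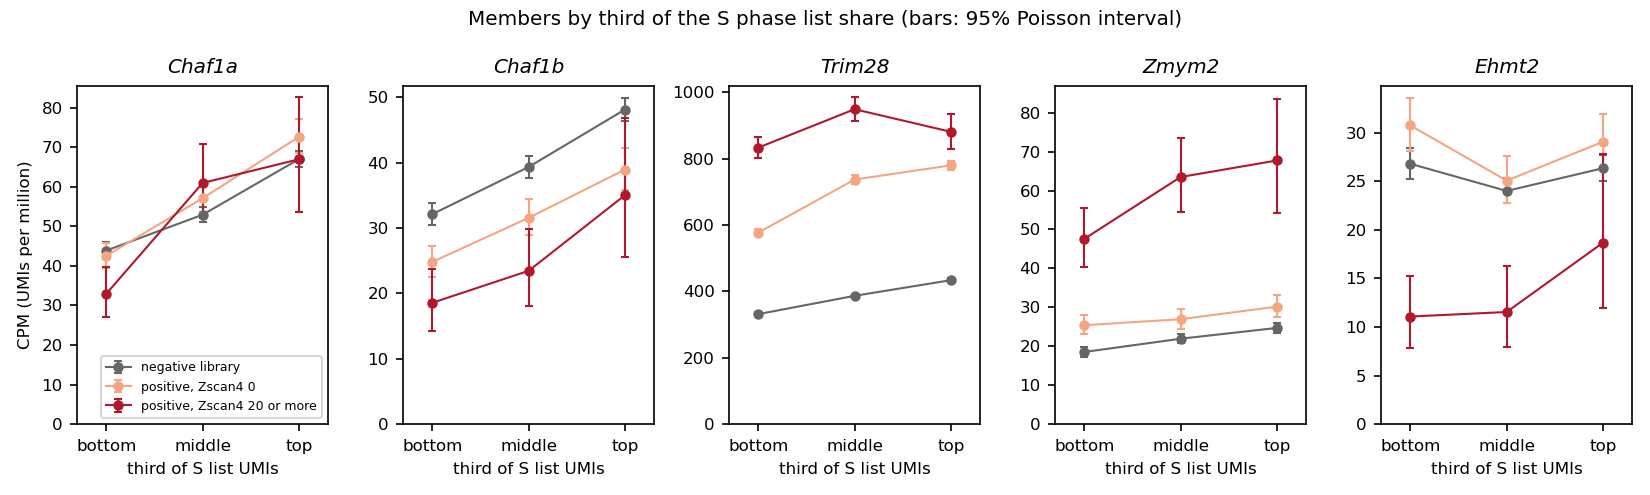
CPM (vertical axes, from 0) of 5 members in cells of the low (bottom), middle and high (top) class by S phase UMIs, in the negative library (grey) and in positive-library cells with 0 (orange) or 20 or more (red) Zscan4 UMIs, with bars for the 95% Poisson interval. Chaf1a and Chaf1b stand higher from bottom to top in all 3 sets of cells, and Ehmt2 does so only in the smallest set, at 20 or more Zscan4 UMIs.

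A second population within both libraries, cells with 5 or more thinned UMIs of the 8 primitive endoderm markers (the lineage next to the embryo's pluripotent cells), differed in 4 members. In positive-library cells with 0 Zscan4 UMIs, 189 such cells were set against 948 with 0 endoderm UMIs. Trim28 had 388 CPM (373 to 403) against 754 CPM (745 to 764), Kdm1a 194 CPM (183 to 205) against 313 CPM (307 to 320), and Hdac1 109 CPM (101 to 118) against 180 CPM (175 to 185). Ehmt2 was higher, at 45.1 CPM (40.04 to 50.6) against 25.3 CPM (23.6 to 27.1), and Rybp had 155 against 106 CPM, a ratio of 1.46 (1.36 to 1.57). The 301 cells with 1 to 4 endoderm UMIs stayed near the cells with 0, with 701 CPM for Trim28 and 27.2 CPM for Ehmt2.

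By the limit of 1.5, 1 member was called higher and 3 lower, beside 13.3% and 12.4% of 8164 genes, and the members' median was -0.32 against -0.02 for all genes. In the negative library, 222 endoderm-marked cells against 3213 with 0 gave 255 against 398 CPM for Trim28, 212 against 328 CPM for Kdm1a and 42.6 against 24.5 CPM for Ehmt2, with all 3 called, while Hdac1 at 102 against 133 CPM was not and Zmym2 at 14.3 against 22.4 CPM was. Endoderm-marked cells were few in the high S phase class, 3.17% of the 189 against 35.2% of the 948. Within the low S phase class of the positive library Trim28, Kdm1a and Hdac1 were again called lower and Ehmt2 higher, and Pcgf6 was also called lower. Depth was alike, with medians of 33478 and 33379.5 UMIs a cell. Ehmt2 thus stood lowest in cells with the most Zscan4 UMIs and highest in cells with endoderm markers, and the share of endoderm-marked cells was 1.95% in the highest and 13.1% in the lowest Zscan4 class.

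The partners of the members in their complexes were taken from 6 lists of other repressor genes. Of their 82 different symbols, some on 2 lists, 81 were found and 77 passed the filter by Zscan4 level. The symbol not found, Fam208a, is an earlier name of Tasor, which was measured. Of the 77, 10 were called higher (13%) and 15 lower (19.5%) in cells with 20 or more Zscan4 UMIs, beside 18.7% and 20.6% of all genes, so neither share was above that of all genes, and the values below describe single genes. The 77 had a median log2 ratio of -0.16 against -0.11 for all genes. Among 17 partners of TRIM28 and SETDB1, 5 were higher and 2 lower: Zfp809, a KRAB zinc finger gene that recognises retroviral sequence, had 263 against 38.5 CPM, Atf7ip2 37.7 against 16.6 CPM, Suv39h1, an H3K9 methyltransferase gene, 23.9 against 12.9 CPM and Pphln1, of the HUSH complex, 36.8 against 20.1 CPM. The HP1 genes Cbx5 and Cbx1 had 90.2 against 171 CPM and 226 against 414 CPM.

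Among 17 genes of the LSD1, CoREST and NuRD list, 1 was higher and 4 lower: Zfp217 had 57.9 against 23.5 CPM, and Rcor2, a CoREST scaffold gene, 24.9 against 44.0 CPM, Mbd3 58.4 against 99.1 CPM, Mta3 28.1 against 48.0 CPM and Phf21a 13.7 against 21.8 CPM. Zmym2 was thus on the same side as Zfp217. Of 5 genes that work with G9a, Cdyl was higher (35.0 against 22.4 CPM) and Dnmt3l lower (63.3 against 106 CPM), and Dnmt3l in endoderm-marked cells had 316 against 71.3 CPM.

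Of 15 histone chaperone genes, 3 were higher and 2 lower: Asf1a, whose product hands histones to CAF-1, had 146 against 70.2 CPM, Asf1b 49.6 against 29.7 CPM and Ubn1 53.4 against 32.5 CPM, whereas Cabin1 had 27.2 against 51.9 CPM and Supt16 158 against 264 CPM. Among 11 PRC1.6 genes, 0 were higher and 3 lower: Mga, the scaffold of the complex, had 38.3 against 93.8 CPM, Tfdp1 20.3 against 50.1 CPM and Tfdp2 73.7 against 122 CPM, while Rnf2, the ubiquitin ligase gene of PRC1, lay just under the limit on the other side at 125 against 83.3 CPM. Of 15 other known repressors of the programme, 0 were higher and 3 lower: Myc had 5.95 against 16.4 CPM, Sumo2 482 against 1032 CPM and Senp6 49.9 against 79.7 CPM. The median log2 ratios of the 6 lists, in the order described, were -0.10, -0.08, -0.13, -0.13, -0.40 and -0.25. Along the S phase classes Uhrf1, Pcna and Nasp were called higher, but they are among the 42 S phase genes that made the classes, so these calls are no result. Of the other 74 list genes 1 was called, Myc, which was higher (1.35%, beside 0.617% higher and 2.3% lower of all genes). These 4 were named after their values were seen.

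The genes most like Zmym2 and Ehmt2 were found by the Pearson r of log2(CPM + 1) across the same 16 groups of cells, among 9376 genes. Nearest to Zmym2 were Rimklb with an r of 0.99 and levels of 11.8 to 115 CPM over the groups, C2cd2l with 0.98 and 1.77 to 16.1 CPM, and Tex30 with 0.97 and 107 to 243 CPM. Nearest to Ehmt2 were Ubtf with 0.97 and 59.8 to 137 CPM, Blmh with 0.96 and 53.6 to 97.6 CPM, and Stox2 with 0.96 and 2.06 to 11.4 CPM. The 3 genes like Zmym2 had their lowest level in the negative library. They were chosen for likeness to Zmym2 over these same groups, so this is no separate result. Levels are not divided by transcript length, so CPM values compare groups of cells for 1 gene and do not rank the members against each other.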

How the data were processed

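Counts per gene and cell were deposited by the authors as 1 sparse matrix for each of the MERVL GFP positive and MERVL GFP negative libraries of a mESC line. They are whole numbers, read here as UMIs because every cell has a 16-base barcode and the labels give a single-cell source. The labels' extraction protocol names kits for total RNA and library construction that do not capture single cells. Per the submitters' processing notes, the tools were FastQC 0.11.2, Trim Galore 0.6.4 and STAR 2.7.6a with build mm10, with no role or order. Annotation, cell calling, strand use and molecule counting are not given in the sources used here.

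Cells were kept with at least 1000 UMIs, 500 genes and at most 20% mitochondrial UMIs. Doublets were not called, and an alternative left out cells above 2 times the median UMIs. UMIs were summed over the cells of a group and divided by the group's total over all genes (CPM), with no correction for gene length. Log2 ratios use CPM + 1. Tested means at least 10 CPM in 1 group and 50 UMIs in all, and called means a ratio of at least 1.5 across all genes tested. Intervals are 95% (exact Poisson for levels, exact conditional binomial for ratios) and cover counting error only. Cells are not replicates, so there is no p-value. Zscan4, GFP, endoderm and S phase classes came from each cell thinned to 10000 UMIs, which left out 194 and 8 cells. The members, gene lists and tests were chosen with earlier results of these data known. Named genes are the members, up to 4 list genes per direction by Zscan4 level and the 3 genes most alike the 2 extreme members. List genes named for the library, S phase and endoderm comparisons fall outside this rule, and their values were known when they were picked. The promoter motif and, for the library, S phase and endoderm comparisons, the alternatives by S phase class, depth, endoderm markers and library were chosen after seeing the data.

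Gene positions are GENCODE M21 (GRCm38) matched by identifier for 10 of 10 members, and may differ from the authors' annotation. Steps were tested on simulated data. Scaling factors came from edgeR 4.0.16 (TMM) and DESeq2 1.42.0 (median of ratios) in R 4.3.3, and all else from Python 3.11.15 with pandas 2.3.3, matplotlib 3.10.9, scipy 1.17.1 and numpy 2.4.6.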

Additional observations from a re-analysis of the deposited data

How the results depend on the processing

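No paired analysis was possible because no group has more than 1 library, so no replicate could be left out either. Filters on low genes could not change the members' values, since all 10 passed, and are not counted here. Over 105 other alternatives to the counts of members called, 72 stayed within 1.5 times and 33 did not, and over 89 alternatives to the members' median log2 ratio, which leave out other call limits, 85 stayed and 4 moved. Between the libraries, where 1 member was called, 2 were called under TMM, median of ratios, a pseudocount of 0.1, the bottom or middle S phase class or fewer than 5 endoderm UMIs, 3 under the mean of each cell's CPM or in cells of 10000 to 20000 UMIs, 4 at a ratio of 5 to 4 and 0 at a ratio of 2. The members' median of 0.11 became -0.18 under both TMM and median of ratios. In cells with 0 Zscan4 and 0 GFP UMIs the median of 0.15 became -0.18 (TMM) and -0.21 (median of ratios), and the count of 1 became 2 at a ratio of 5 to 4 and 0 at a ratio of 2. By Zscan4, 4 members in place of 2 were called at 5 to 4. By GFP, where 0 were called, 1 was called under TMM, median of ratios, thinned UMIs or in the top S phase class, 2 at 10 or more GFP UMIs or in the middle S phase class, and 4 at 5 to 4. By Zscan4 among cells with 2 or more GFP UMIs, 2 became 1 under TMM and 0 at a ratio of 2, and by GFP at 0 Zscan4, 0 became 1 at 5 to 4. By S phase class, 1 became 2 under TMM, median of ratios, without cells above 2 times the median UMIs or in positive-library cells, 0 with thinned UMIs, with CPM outside mitochondrial and ribosomal protein genes or at a ratio of 2, and 4 at 5 to 4. By endoderm markers, 4 became 7 at 5 to 4 and 0 at 2. Of the values of single members under those 89 alternatives, 692 of 890 moved by less than their counting interval. The cause of these changes was not tested. The endoderm comparison within the middle and top S phase classes held too few cells (36 and 6) and was not run. Ehmt2 had 93 UMIs in the highest Zscan4 class and fewer in the groups within it, where its intervals are wide.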

Other observations

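Other repressor genes of the 6 lists also differed between the libraries, and those below were chosen after their values were seen. Of 77 list genes tested, 9 were called higher (11.7%) and 3 lower (3.9%) in the positive library, beside 17.6% and 4.89% of all genes, so neither share was above that of all genes. All 12 are named here. Zfp809, a KRAB zinc finger gene, had 82.4 against 11.4 CPM, Atf7ip2 19.7 against 11.6 CPM, Zfp217 28.4 against 17.4 CPM, Zmym3 32.1 against 19.7 CPM and Pphln1 25.0 against 16.02 CPM. Rif1, a replication timing factor that also represses the 2C programme, had 625 against 366 CPM, Kdm5b, an H3K4 demethylase gene, 740 against 410 CPM, and Resf1, which acts with SETDB1 in silencing retroviruses, 203 against 117 CPM. Atf7ip, whose product stabilises SETDB1, had 66.2 against 30.4 CPM, whereas Sumo2, the SUMO modifier, had 907 against 1530 CPM, Tfdp1 42.2 against 76.7 CPM and the HP1 gene Cbx3 155 against 234 CPM. In cells with 0 Zscan4 and 0 GFP UMIs, 4 of 77 list genes were called, all higher (5.19%, beside 10.9% higher and 2.02% lower of all genes): Atf7ip, Zfp809, Kdm5b and Rif1. In endoderm-marked cells against cells with 0 endoderm UMIs, 7 of 79 list genes were called higher (8.86%) and 12 lower (15.2%), beside 13.3% and 12.4% of all genes. Of those 4 genes, Kdm5b (229 against 789 CPM) and Rif1 (255 against 643 CPM) were called lower, as Trim28 was, Zfp809 was called higher (58.0 against 32.8 CPM), and Atf7ip, at 64.8 against 55.6 CPM, was not called. Values of list genes were not recomputed under other scalings, which moved the median of all genes between the libraries by -0.30 on the log2 scale.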
